A study of Homo sapiens with 13 samples.

Results

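The genes described here were YAP1 and WWTR1, which encode the coactivators YAP and TAZ, the TEAD family genes TEAD1 to TEAD4, and CCN1, CCN2, AMOTL2 and ANKRD1, widely used targets of these factors. They were 10 of 20007 protein-coding genes in GENCODE release 44 on chromosomes 1 to 22, X and Y, and they were chosen by name. For each gene, the accessible regions listed for H82 and for H146 were counted around the transcription start (TSS, the 5′ end of the gene in GENCODE) to a distance of 1 kb, in the gene body, and in the gene body together with 50 kb to either side, called the window of the gene below. Accessibility had been measured by ATAC-seq, in which a transposase cuts and tags open chromatin. Both lines are established from human small cell lung cancer (SCLC). H82 is of the NEUROD1 subtype, and the sample labels give both lines as wild type. Each line was grown in RPMI1640 with serum, either untreated or with 100 nM FHD-286, an inhibitor of the ATPases SMARCA4 and SMARCA2, for 14 days. There were 3 untreated and 3 treated H82 samples and 4 untreated and 3 treated H146 samples.

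YAP and TAZ have no DNA-binding domain of their own and act on genes through TEAD proteins, which bind DNA. The Hippo kinases MST1/2 and LATS1/2 phosphorylate YAP and TAZ, which keeps them in the cytoplasm or sends them to degradation. Neuroendocrine SCLC is known for low YAP1 expression, and YAP1 is typical of non-neuroendocrine SCLC cells. CCN1 and CCN2 encode secreted matricellular proteins, AMOTL2 encodes an angiomotin that binds YAP, and ANKRD1 encodes an ankyrin repeat cofactor first known from muscle.

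The files held 1 list of regions per line, which the authors had merged over the untreated and treated samples of that line, with positions and no signal. The treated and untreated samples therefore cannot be told apart here, there is no replicate spread, no depth per sample is known, and every difference below is a description of 2 lists with no test. How many samples stand behind a listed region is not known. H82 had 206927 regions covering 5.41% of the genome and H146 had 174093 covering 4.49%, a ratio of 1.19 in number. As a check of the labels, the TSS of NEUROD1 had a region in the H82 list only. The TSSs of the other neuroendocrine genes INSM1, SYP and CHGA had regions in both lists, as had those of POU2F3, COL1A1 and PECAM1, which mark tuft cells, fibroblasts and endothelium. The TSSs of DCN, PTPRC, CD3E and CDH5, markers of fibroblasts, immune cells and endothelium, had none in either.

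The 2 lists shared region edges to the base. In all, 19180 regions had the same start and the same end in both, 9.27% of the H82 list and 11.0% of the H146 list. Among 113588 pairs of regions that overlapped 1 to 1, 34514 had the same start, whereas no other offset up to 50 bp occurred for more than 529 pairs. For the ends, 34576 pairs coincided and no other offset exceeded 526. In the windows of the 10 genes, 62 of 188 H82 regions (33.0%) and 63 of 178 H146 regions (35.4%) had an edge identical to one in the other list, against 25.3% and 30.0% of all regions. The cause of the coincidence was not tested. The H82 and H146 lists are thus not shown to be separate measurements at these regions, and the counts and differences for the 10 genes are given also without regions that share an edge.

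**Figure D1:**
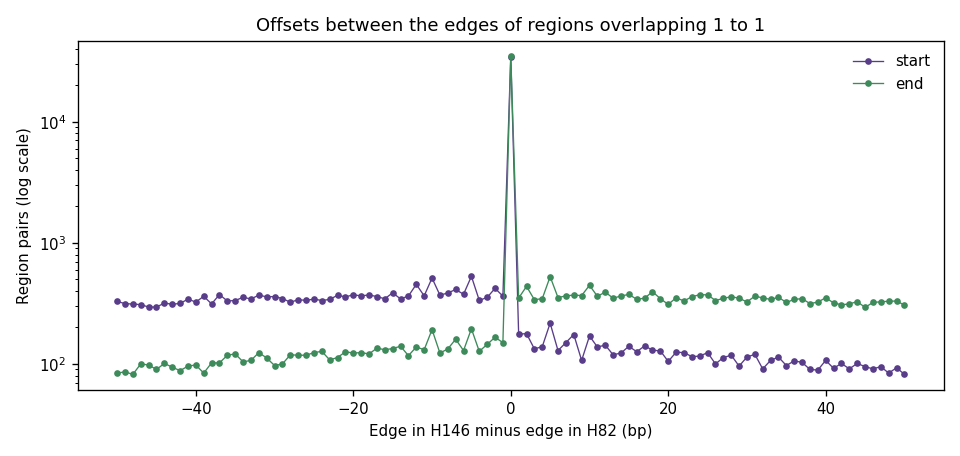
Offset in bp between the edges of H82 and H146 regions that overlapped 1 to 1 (x axis, H146 minus H82) against the number of pairs at that offset (y axis, log scale), for starts and for ends. At 0 bp there were 34514 starts and 34576 ends, and no other offset held more than 529 starts or 526 ends.

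In both lines, 8 of the 10 genes had a TSS region, meaning 1 that reached into the 1 kb to either side of the start: YAP1, all 4 TEAD genes, CCN1, CCN2 and AMOTL2. WWTR1 had one in H82 only, none had one in H146 only, and ANKRD1 had none in either. Among all protein-coding genes, 75.4% had a TSS region in each of the lists, 5.09% in that of H82 alone, 1.86% in that of H146 alone and 17.7% in none, so that the count of 8 lay near the background. At 4 of the 8 genes, TEAD3, CCN1, CCN2 and AMOTL2, the TSS regions of the lines shared an exact edge. Without regions that had such an edge, 4 genes kept a TSS region in both lines and 5 had none in either. Over all genes with a TSS region in both lines, 71.5% kept it in both lines under that condition.

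In the windows, 188 H82 and 178 H146 regions were listed, a ratio of 1.06. H82 had more regions at 6 genes and H146 at 4, whereas 62.0% of all genes had more in H82 and 27.9% more in H146. The covered share, the percentage of bases of the window that lay in a region, was higher in H82 at 8 of the 10 genes, against 63.7% of all genes. The median difference in covered share was 1.32 percentage points over the 10 genes and 0.731 over all genes, with H82 higher in both cases. Divided by the number of regions in each list, counts were higher in H82 at 4 of the 10 genes and in H146 at 6, against 48.8% and 50.6% of all genes. Without regions that shared an edge, H82 had more regions at 6 genes and a higher share at 8, and the median difference was 1.55 points, against 0.796 over all genes. Such a region has a partner in the other list, so leaving out both takes nearly equal numbers from each line. That setting could therefore hardly change which line had more regions. The differences of single genes ran from -2.01 percentage points at CCN2, at the 10.5th percentile of all genes, to 9.11 at TEAD3, at the 90.8th.

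**Figure D2:**
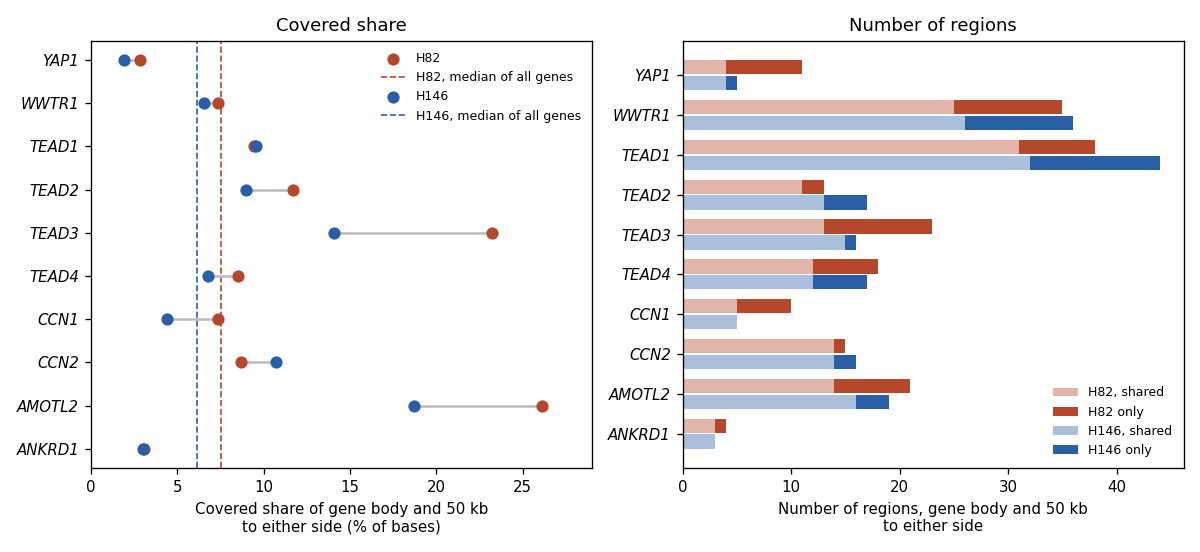
Left, covered share of the gene body and 50 kb to either side (% of bases) in H82 and H146, with the median of all protein-coding genes in each line as dashed lines; right, number of regions in the same window, split into regions that overlap one of the other line by at least 1 bp (shared) and regions of 1 line only. TEAD3, AMOTL2, CCN1 and TEAD2 had higher shares in H82, CCN2 had a higher share in H146, and the H82 bar at YAP1 was made mostly of H82-only regions.

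**Figure D3:**
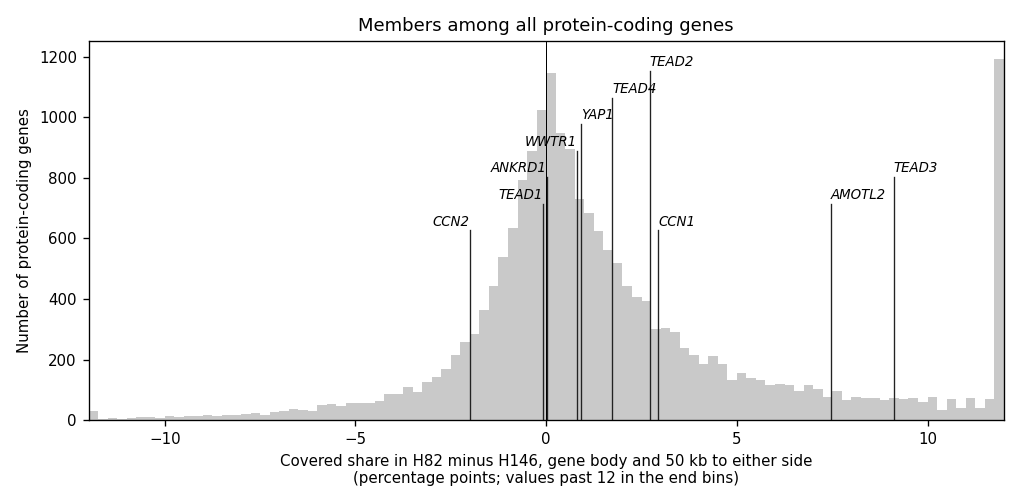
Difference in covered share between H82 and H146 (percentage points, x axis) over 20007 protein-coding genes (histogram), with the 10 genes marked by vertical lines whose height has no meaning. TEAD3 at 9.11 and AMOTL2 at 7.46 lay toward the H82 end, CCN2 at -2.01 lay toward the H146 end, and the others lay within 3 points of 0.

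YAP1 lies at chr11:102110447-102233424 on the plus strand (hg38). The TSS was covered by a region of 1760 bp in H82 and of 1596 bp in H146, with different edges, and the covered share of the TSS window was 78.0% and 76.8%. The lines differed beyond the TSS: the window held 11 regions in H82 and 5 in H146, and the gene body held 4 and 1. The single H146 region of the gene body was the one at the TSS. The ratio of 2.20 compares with 0.963 for all regions of chromosome 11, and 15.7% of all genes had at least 2 times as many regions in H82. Of the 11 H82 regions, 7 had no counterpart in H146, against 40.7% of all H82 regions. The 7 lay at 20.2 and 3.02 kb upstream, 78.1, 82.3 and 117 kb into the gene, and 143 and 164 kb from the TSS, beyond the gene. These 7 were narrow, between 206 and 447 bp, and none held the TEAD word described below. Over all H82-only regions, the median width was 377 bp and 24.0% held the word, so its absence from 7 such regions says little. Little of the window was covered in either line, 2.85% for H82 against 1.94% for H146. Counting regions of at least 500 bp alone, the window held 2 regions in H82 and 3 in H146, and the difference in covered share turned from 0.913 to -0.263 percentage points. Without regions that shared an edge, 8 H82 and 2 H146 regions were left, and the difference was 1.04 points. In the H146 list, 1 region had no counterpart, a region of 200 bp at 169.9 kb from the TSS.

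The TEAD word is GGAATG on either strand, the core of the sequence that TEAD proteins bind. RefSeq promoter sequences (GRCh38.p14) were found for 7 of the 10 genes, YAP1, WWTR1, TEAD2, TEAD3, CCN2, AMOTL2 and ANKRD1. The 250 bases before the RefSeq start of YAP1, chr11:102110197-102110446 on the plus strand, are shown because they lie whole within the TSS regions of both lines. Capitals mark the TEAD word, read here as GGAATG or CATTCC. It occurs once, starting 162 bases before the start site.
YAP1 promoter: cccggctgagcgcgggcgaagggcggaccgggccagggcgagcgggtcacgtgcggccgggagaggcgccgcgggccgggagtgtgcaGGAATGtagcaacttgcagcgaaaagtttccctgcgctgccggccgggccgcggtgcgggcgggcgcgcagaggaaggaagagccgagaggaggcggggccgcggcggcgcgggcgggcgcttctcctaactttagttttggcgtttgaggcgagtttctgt

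The regions beyond YAP1 that did hold the word were shared or specific to H146. A region 157 kb from the TSS was listed in both lines with the same start, at 1565 bp in H82 and 1659 bp in H146, and held 3 TEAD words in each. The 150 bases with the most words, chr11:102268118-102268267, and 150 bases of the H146-only region, chr11:102280366-102280515, are shown as the plus strand of hg38, each placed around the TEAD words that it holds.
YAP1 downstream region, both lines: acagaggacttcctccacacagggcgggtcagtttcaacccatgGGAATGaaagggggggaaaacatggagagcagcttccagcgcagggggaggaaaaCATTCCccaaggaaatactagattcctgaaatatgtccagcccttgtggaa
YAP1 downstream region, H146 only: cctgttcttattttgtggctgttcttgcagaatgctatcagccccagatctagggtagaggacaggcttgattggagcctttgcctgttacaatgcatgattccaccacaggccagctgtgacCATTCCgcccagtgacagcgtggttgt

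WWTR1 lies at chr3:149517235-149736714 on the minus strand. Its annotated 5′ end had an H82 region of 432 bp, chr3:149736522-149736953, and no H146 region as near. That end is the start of 1 non-coding transcript, WWTR1-207. The main coding transcripts start 78.7 kb further in, at position 149658025 or 149658041, and there both lines had the same region of 2507 bp, chr3:149656801-149659307, with both edges identical. The lines could therefore not be compared at those starts. Another coding start, at position 149576252, lay in regions of 911 bp in H82 and 882 bp in H146 with different edges. Counted over the starts of all transcripts, WWTR1 had TSS regions in both lines, and the H82-only call ended. It ended also with regions of at least 500 bp and with 5 kb to either side. Of 11 annotated starts of WWTR1, 5 had regions in the lists of both lines, and 1 had none. Another 4 had a region in H146 alone and 1 in H82 alone. The WWTR1 window held 35 H82 regions and 36 H146 regions, 10 of each without a counterpart, and regions covered 7.37% of it in H82 against 6.56% in H146. Over the whole lists, 40.7% of H82 regions and 29.5% of H146 regions lacked a counterpart. With the covered share of chromosome 3 subtracted in each line, the difference of 0.813 points turned to -0.0905, and without regions that shared an edge it was 0.417. Of the regions, 9 were identical in start and end. The bases before the main start, chr3:149658042-149658275 on the minus strand, are shown because the same region covered them in both lists. They hold no TEAD word.
WWTR1 promoter: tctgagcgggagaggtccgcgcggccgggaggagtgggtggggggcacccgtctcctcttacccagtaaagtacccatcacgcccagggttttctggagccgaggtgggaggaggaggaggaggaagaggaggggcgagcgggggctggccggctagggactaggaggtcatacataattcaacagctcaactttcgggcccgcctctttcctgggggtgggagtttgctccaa

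The TEAD genes encode the DNA-binding partners of YAP and TAZ, and all 4 had TSS regions in both lines. TEAD1, at chr11:12674421-12944737, had the most regions of the 10 genes, 38 in H82 and 44 in H146, with covered shares of 9.47% and 9.57%. H146 had 12 regions without a counterpart there and H82 had 7, against 29.5% and 40.7% of the regions in the whole lists. Of 30 TEAD1 regions that paired 1 to 1, H146 was wider at 22 and H82 at 6, while H146 was wider at 57.1% and H82 at 25.8% of all such pairs in the genome. The 10 genes together did not lean as far: of 125 pairs, H146 was wider at 60, H82 at 42, and 23 were equal. At TEAD3, H82 was wider at 8 of 11 pairs and H146 at 3. The TEAD1 difference of -0.0942 points turned to 0.412 with regions of at least 500 bp and to 0.390 with the share of the chromosome subtracted, and was -0.221 without regions that shared an edge, so no direction is read from it.

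TEAD2, at chr19:49340595-49362457, differed at the promoter. A single H82 region of 3806 bp spanned its TSS, whereas H146 had separate regions of 690 bp at the TSS and 393 bp upstream within that stretch. Further H146 regions lay at its ends, one of 1103 bp that overlapped it at the upstream end and one of 574 bp just past it inside the gene. The TSS window was covered whole in H82 and to 34.5% in H146, a difference at the 98.7th percentile of all genes. None of these regions shared an exact edge between the lists. H146 had more regions in the TEAD2 window, 17 against 13, and a lower covered share, 8.98% against 11.7%. The promoter of DKKL1, a neighbouring gene, lies within 1 kb of the H82 region, and the data do not assign the region to either gene. With the covered share of chromosome 19 subtracted in each line, the TEAD2 difference fell from 2.72 to 0.927 points. It was 2.72 also without regions that shared an edge.

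TEAD3, at chr6:35473597-35497079, had the widest gap of the 10 genes. Regions covered 66.2% of its gene body in H82 and 40.8% in H146, and 23.2% and 14.1% of its window. Of 23 H82 regions, 10 had no counterpart, compared with 1 of 16 in H146. In the whole lists, 40.7% of H82 regions and 29.5% of H146 regions had none, so the H82 count lay near that share and the H146 count below it. Upstream of the gene, 6 H82-only regions lay between 14.7 and 47.8 kb from the TSS, 2 of them within 1 kb of the TSS of the retinal gene TULP1, and the region at 36.9 kb held 3 TEAD words. Within the gene, a 5388 bp H82 region near its 3′ end stood over one of 3339 bp in H146. The TSS region was 3266 bp in H82 and 2540 bp in H146, with an identical start. Without regions that shared an edge, the difference in covered share of the TEAD3 window fell from 9.11 to 7.26 points.

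TEAD4, at chr12:2959330-3040676, had 18 H82 and 17 H146 regions and covered shares of 8.53% and 6.79%, a difference of 1.73 points that was 2.06 without regions that shared an edge. Its TSS region was wider in H146, 2859 bp against 2481 bp, and held 4 TEAD words in both lines. The widest line-only region of the TEAD4 window was an intronic H82 region of 1912 bp at 43.8 kb from the TSS. The promoter of TSPAN9 lies in this window and had a region in each line.

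**Figure D4:**
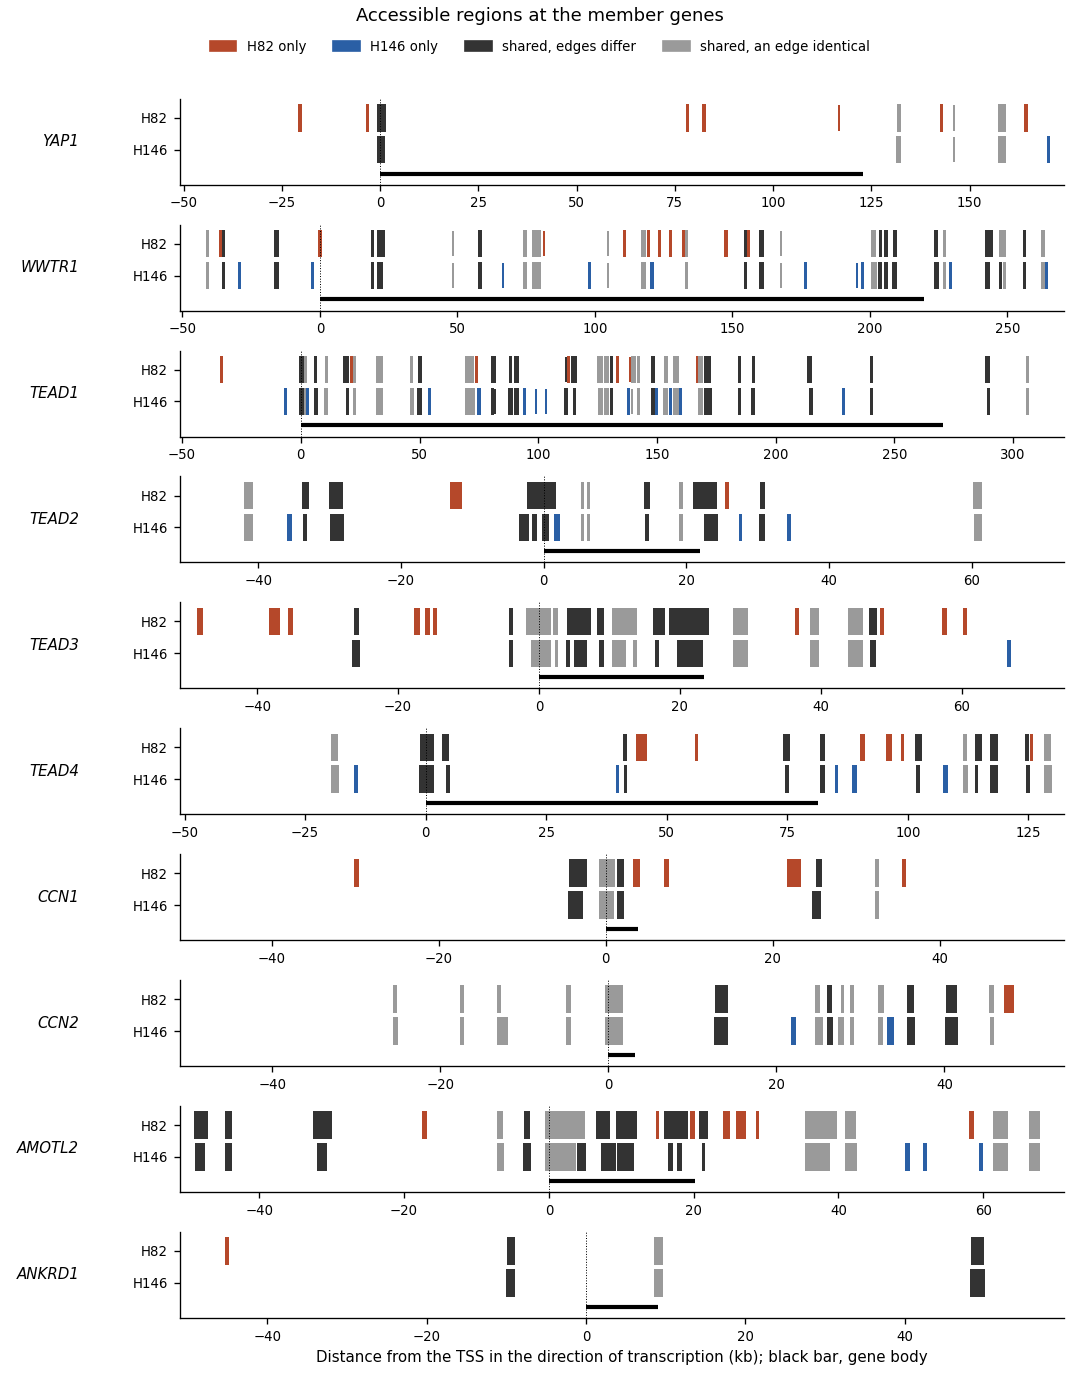
Regions of H82 (upper row) and H146 (lower row) at each of the 10 genes, by distance from the TSS in the direction of transcription (kb); the black bar is the gene body, colours show regions of 1 line only, shared regions, and shared regions with an edge identical in both lists. Boxes carry an outline that widens narrow regions slightly. YAP1 has 7 H82-only boxes and 1 H146-only box, TEAD3 has 10 and 1, and CCN2 has mostly shared boxes with identical edges.

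Among the targets, CCN1 and CCN2 differed in direction although they encode related proteins. CCN1, at chr1:85580761-85584589, had 10 H82 regions and 5 H146 regions, and its window was covered to 7.35% in H82 and 4.41% in H146. All 5 H146 regions overlapped an H82 region, and 5 H82 regions had no counterpart. Over the whole lists, 29.5% of H146 regions and 40.7% of H82 regions had none. H82 had 1.47 times as many regions as H146 on the whole of chromosome 1, and with the covered share of the chromosome subtracted the difference fell from 2.94 to 0.438 points. Without regions that shared an edge it was 2.91. Its TSS region was much the same in both, 1603 and 1573 bp with an identical start, and held 2 TEAD words. Of the H82-only regions, 2 held the word, one of 556 bp over the last exon with 2 words and one of 1358 bp at 21.9 kb with 1. The sequence around the latter, chr1:85603664-85603813 on the plus strand of hg38, is shown as a distal stretch listed in H82 alone.
CCN1 downstream region, H82 only: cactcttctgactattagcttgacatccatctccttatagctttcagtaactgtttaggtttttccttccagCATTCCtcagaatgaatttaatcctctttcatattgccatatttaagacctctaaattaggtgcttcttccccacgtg

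CCN2, at chr6:131948176-131951372, had a higher share in H146, 10.7% against 8.71%, with 16 regions against 15. Nearly all were shared: 14 in each line had a counterpart, 10 of them with an identical edge. The region over the TSS was the same 1912 bp in both lists, with both edges identical and 4 TEAD words, so the lines could not be compared there. A region 12.8 kb beyond the TSS, 1277 bp in H82 and 1411 bp in H146, had different edges and also held 4 words in each. With identical-edge regions left out, the CCN2 difference of -2.01 points became -0.608. The 250 bases before the CCN2 start, chr6:131951373-131951622 on the minus strand, hold 3 TEAD words, starting 169, 104 and 95 bases before it. A stretch of the downstream region with 3 words, chr6:131938003-131938152 on the plus strand, is shown beside it; it lies in an intron of the non-coding gene LINC01013.
CCN2 promoter: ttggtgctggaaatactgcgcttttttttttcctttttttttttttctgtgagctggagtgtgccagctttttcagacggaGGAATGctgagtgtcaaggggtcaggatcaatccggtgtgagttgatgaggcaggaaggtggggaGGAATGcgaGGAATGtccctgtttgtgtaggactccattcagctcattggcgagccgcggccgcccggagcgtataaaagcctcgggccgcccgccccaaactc
CCN2 downstream region, both lines: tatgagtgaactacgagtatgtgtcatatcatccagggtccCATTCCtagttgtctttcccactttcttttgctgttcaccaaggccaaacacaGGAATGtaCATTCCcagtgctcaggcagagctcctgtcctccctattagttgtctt

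AMOTL2, at chr3:134355347-134375479, had the highest covered share of the 10 genes, 26.1% in H82 and 18.7% in H146. Its gene body was covered to 65.1% in H82 and 44.5% in H146 with 6 regions in each line. The TSS region was 5271 bp in H82 and 3914 bp in H146, with one identical edge, and 4 TEAD words lay in each. The H82 region also overlapped another H146 region, of 912 bp, further into the gene. The TSS window was covered to 68.9% in both lines. A 3105 bp H82 region toward the 3′ end of the gene stood over separate H146 regions of 378 and 323 bp. Counts alone thus understated this difference, since 21 H82 and 19 H146 regions lay in the window. The difference of 7.46 points in covered share fell to 5.59 without regions that shared an edge.

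ANKRD1, at chr10:90912096-90921087, had no region within 1 kb of its single annotated start in either line. Of 4 H82 regions and 3 H146 regions in its window, the nearest lay over the 3′ end of the gene, 8.65 kb from the TSS and identical in both lists at 915 bp. Another pair lay 9.03 and 9.06 kb upstream, 790 bp wide for H82 against 829 bp for H146. The remaining pair lay at the promoter of RPP30. Covered shares were 3.07% and 3.05%, and that difference of 0.0128 points turned negative with 10 kb or 100 kb to either side and with regions of at least 500 bp. Leaving out regions that shared an edge could not alter it, because the only such region was the identical one of 915 bp. The 250 bases before its start, chr10:90921088-90921337 on the minus strand, hold 2 TEAD words, starting 220 and 128 bases before it, and 1 AP-1 word. They are shown beside those of CCN2 because both hold the word, while a region covered that of CCN2 and none that of ANKRD1.
ANKRD1 promoter: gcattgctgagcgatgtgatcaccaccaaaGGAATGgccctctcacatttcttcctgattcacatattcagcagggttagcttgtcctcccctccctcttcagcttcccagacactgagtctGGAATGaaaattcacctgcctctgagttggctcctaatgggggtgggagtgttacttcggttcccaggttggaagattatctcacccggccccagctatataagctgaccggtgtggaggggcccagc

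In gene bodies alone, H82 had more regions at 4 genes, YAP1, WWTR1, TEAD4 and CCN1, while TEAD1 and TEAD3 had more in H146 and 4 genes had equal numbers; 41.1% of all genes had more in H82. Over all 63 annotated transcript starts of the 10 genes, 49 had a region at a distance of up to 1 kb in each list and 6 had none. The H82 list alone had one at 3 starts, and the H146 list alone at 5. Over 146340 starts of all protein-coding genes these shares were 63.1% in each list, 28.1% with none, 6.16% for H82 alone and 2.70% for H146 alone. Starts of 1 gene often lie near the same region and are not separate units. AMOTL2 gave 12 of the 49 starts with a region in each list, and WWTR1 gave 4 of the 5 in H146 alone. By their centres, 20 of the 56 H82-only regions in the windows were intronic and 2 exonic, beside 57 and 10 of the 132 shared H82 regions. For H146, 19 of 38 were intronic and none was exonic, beside 59 and 15 of 140 shared ones. Line-only regions made up 29.8% of the H82 regions and 21.3% of the H146 regions there, compared with 40.7% and 29.5% in the whole lists. Among regions with no identical edge they made up 44.4% and 33.0%, compared with 54.5% and 42.1%. The H82-only regions in the windows had a median width of 388 bp and the shared ones 863 bp, against 377 and 610 bp in the whole list. For H146 the medians were 310.5 and 694 bp, against 315 and 662 bp.

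Regions in the windows held the TEAD word somewhat more often than all regions. The word occurred in 76 of 188 H82 regions (40.4%) and 68 of 178 H146 regions (38.2%), against 30.2% of all regions in each line. The regions in the windows were wider, with medians of 534 and 528 bp against 482 and 499 bp. Per kb, H82 regions in the windows held 0.658 words against 0.570 in all H82 regions, and H146 regions held 0.743 against 0.558. The H82 excess was lost with the longer word CATTCCA or with the central 200 bp of each region, where the ratio to all regions was 0.937 and 0.984. For H146 the ratio was 1.33, and it lay between 1.15 and 1.40 with the 4 alternatives run. Without regions that shared an edge, the ratio was 1.19 in H82 and 1.40 in H146. By gene, the density in H82 ran from 0.280 words per kb at TEAD2 to 1.45 at CCN2. Of the line-only regions, 16 of 56 in H82 and 6 of 38 in H146 held the word. The word TGANTCA, bound by AP-1 proteins, which often occupy the same enhancers as TEAD, occurred in 47 H82 regions (25.0%) and 42 H146 regions (23.6%), against 20.2% and 21.9% of all regions. Both strands were read for each word, and the words can overlap at their ends. In the RefSeq promoters, 250 bases before each of 35116 starts, 11.9% held the TEAD word and 6.57% the AP-1 word. Of 10 such promoters of the member genes, 4 held the TEAD word: those of YAP1, CCN2 and ANKRD1 and 1 of 2 of AMOTL2. A match of letters is not a bound site.

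**Figure D5:**
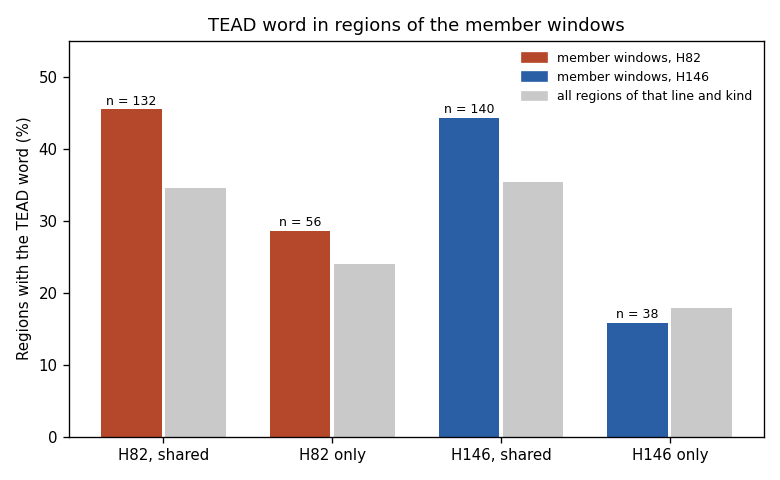
Percentage of regions with at least 1 TEAD word (y axis), for shared and line-only regions of each line in the windows of the 10 genes (coloured bars, n regions above) and for all regions of the same line and kind (grey bars). Shared regions in the windows held the word at 45.5% in H82 and 44.3% in H146, against 34.5% and 35.4% of all shared regions, and line-only regions at 28.6% and 15.8% against 24.0% and 17.8%.

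Other genes of the pathway are read here against all genes, of which 75.4% had TSS regions in both lines and 62.0% had more regions in H82. Of 22 upstream regulators, which include the kinases and their scaffolds, 19 had one in both, 2 (FRMD6 and LIMD1) had none and 1 had one in H82 alone. The exception was RASSF1, a tumour suppressor that binds the MST kinases, where H82 regions covered 11.3% of the TSS window and H146 had none, although 1 H146 region lay in its gene body. Of 4 TEAD cofactors of the VGLL family, 3 had TSS regions in both lines and VGLL1 in neither. Of 16 further targets, 15 had them in both and CCDC80 in neither. The window held more regions in H82 at 16 of the 22 upstream genes, 10 of the 16 targets and 1 of the 4 cofactors. The median differences in covered share, H82 minus H146, were 0.846, 1.21 and 0.662 percentage points, beside 0.731 for all genes.

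The genes on other chromosomes most like YAP1 in 4 values (the covered share of the TSS window and of the gene window, each in both lines) were ARHGAP6, TTC28 and SRD5A2, at distances of 0.743, 0.746 and 1.17 percentage points. For WWTR1 they were GCNT1, TMED6 and AOC3, at 0.738, 1.41 and 1.58. These distances are over 2 lists, with no replicates.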

How the data were processed

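The authors trimmed paired reads with Trim Galore 0.4.4, aligned them to hg38 with Bowtie2 2.3.4, removed duplicates, called peaks per sample with MACS2, removed blacklisted regions, and merged peaks within 500 bp into 1 list per line. Cells had been cryopreserved, and 3 H146 controls formed a batch apart from the other H146 samples. The deposited files hold region positions only, with no count, signal or score. Read counts (featureCounts 1.6.0) and results of DESeq2 were not used here.

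From these lists, region numbers and covered bases were computed with Python 3.11.15, pandas 2.3.3 and pysam 0.24.0, and overlaps (at least 1 bp) were checked with bedtools 2.31.1. No region passed a chromosome end of the hg38 reference, and the counting was tested on simulated data. Single mitochondrial regions were left out. Genes came from GENCODE 44. No test was run, since no sample values exist. The members and lists were chosen with earlier results of these data known. All 10 members are named, list genes where the TSS state differs or is absent, and 3 genes most like YAP1 and WWTR1. Neighbouring genes, the YAP1 promoter and the region stretches of 150 bases (those with the most TEAD words) were chosen after their values were seen. Alternatives were other distances, a minimum width of 500 bp, other overlap rules, scaling by list or chromosome, other words, and, added after the data were seen, leaving out identical regions.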

Additional observations from a re-analysis of the deposited data

How the results depend on the processing

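No paired analysis was possible because each list pools all samples of a line, and no sample could be left out in turn for the same reason. The number of genes with TSS regions in both lines fell from 8 to 4 without regions with an identical edge. The 1 gene with a TSS region in H82 only became 0 with 5 kb to either side, with the starts of all transcripts and with regions of at least 500 bp. The 1 gene with a region in neither line became 2 with regions of at least 500 bp, 2 without regions identical in start and end, and 5 without identical edges. Genes with more regions in H146 fell from 4 to 2 with 100 kb to either side and to 2 in the gene body, and rose to 6 after division by the size of each list. The median difference in covered share was 2.25 percentage points in the gene body and 0.682 with the share of the chromosome subtracted. The H146-only share of H146 regions rose to 39.3% when an overlap of 50% of both regions was required and to 33.0% without identical edges. By construction, neither setting can lower that share. The ratio of TEAD words per kb in H82 fell below 1, to 0.937 with the 7-base word and 0.984 in the central 200 bp. Single genes turned sign for YAP1 (-0.263, regions of at least 500 bp), WWTR1 (-0.0905, chromosome), TEAD1 (0.412, regions of at least 500 bp; 0.390, chromosome) and ANKRD1 (-0.135, 10 kb; -0.347, 100 kb; -0.171, regions of at least 500 bp). Beyond what the settings themselves set, the cause was not tested. In all, 85 of 137 alternative values stayed on the same side and within 1.5 times of the value reported. Some of these could not move. Leaving out regions identical in start and end takes the same bases from both lists, so no difference between the lists in number or covered share can change. The tally is therefore not a measure of stability. The depth of the samples, which limits how many regions are called, is unknown.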
